A study of Mus musculus with 6 samples.

Results

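The 10 genes described here encode secreted and membrane-anchored matrix metalloproteinases (*Mmp2*, *Mmp9*, *Mmp11*, *Mmp14* and *Mmp15*), their tissue inhibitors (*Timp1*, *Timp2* and *Timp3*), the membrane-anchored inhibitor *Reck* and the metalloproteinase inducer basigin (*Bsg*). They were taken by symbol from a table of 24080 genes, in which all 10 had a row. Total RNA was sequenced from an endothelial line grown out of mouse embryonic stem cells whose VEC gene is null on both alleles (VEC-null, 3 libraries), and from the cells made from it by adding back wild-type VEC with a retrovirus (VEC-positive, 3 libraries). VEC is VE-cadherin, the adhesion molecule of endothelial cell junctions, encoded by *Cdh5*. Both groups therefore share the null background, and a line is set against its own derivative, so p-values measure only the spread between libraries. No age applies to a cultured line, and no treatment other than the retroviral transfer is named.

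Recovered reads, that is, the whole reads behind the deposited normalized counts, numbered 6036155 to 14136376 per library. *Cdh5* ran against the labels: its normalized counts were 1334 to 1689 in the VEC-null libraries and 739.4 to 794.3 in the VEC-positive ones (log2 fold change -0.96, limma adjusted p = 0.000182). *Cldn5* (claudin-5) and *Vwf* (von Willebrand factor), which the study followed as genes that depend on VEC, were by contrast higher in the libraries labelled VEC-positive. Mean normalized counts went from 6.38 to 458.6 for *Cldn5* (6.01 on the log2 scale, limma adjusted p = 2.14e-06) and from 400.6 to 1746 for *Vwf* (2.12, limma adjusted p = 8.82e-07). The study picked *Vwf*, like VE-PTP (not shown here), from genes upregulated in this same comparison, so its direction was set by that choice. Claudin-5 was known from the authors' earlier work. As RNA, *Cdh5* and *Cldn5* thus ran in opposite directions by label. The study examined VEC as protein in both kinds of cell, by immunoprecipitation, blot and junctional staining, which counts of RNA do not measure. The counts also do not tell RNA of the null alleles from RNA of the added copy. Every direction below is one between libraries as labelled. Endothelial markers other than *Cldn5* were abundant in all libraries. With *Cldn5* included, the 10 markers had a summed normalized count of 45833 to 48154 in VEC-null and 65973 to 67800.1 in VEC-positive. Of the 10, 8 passed the test as higher, where 20.9% of all 14032 tested genes did. Of 10 mural and fibroblast markers 7 had a row, with sums of 63.0 to 79.6 in VEC-null and 196 to 205 in VEC-positive. In the same order, *Pdgfrb* averaged 1.10 and 105, *Pdgfra* 39.88 and 55.69, and *Col1a1* 2.957 and 18.31. *Acta2* went the other way, with 19.44 and 8.593. *Dcn* stayed at 4.67 or less, *Rgs5* at 6.3 or less and *Des* at 9.741 or less. Of 8 leukocyte markers 6 had a row, with sums of 133 to 437.6 and 148 to 201.8, mostly *Itgam*, while *Ptprc* stayed at 3.23 or less. Epithelial and pluripotent markers summed to 13.8 or less in any library. The part of these markers in the results was not tested. VEC-null 3 stood apart: counts of reads in it and in VEC-null 1 or 2 gave chi-squares of 48.9 and 49.7 per gene. VEC-null 1 and 2 gave 6.52 between them, and pairs of VEC-positive libraries gave 11.7 to 17.7. Genes of the mitochondrial genome took 9.62% to 14.9% of reads in VEC-null and 17.97% to 24.18% in VEC-positive, which bears on any scaling by library total.

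Matrix metalloproteinases are zinc enzymes that cut collagens, laminins and other proteins around the cell, and endothelial cells use them to clear basement membrane when they sprout. They are made as inactive proenzymes. *Mmp14* and *Mmp15* encode membrane-type enzymes (MT1-MMP and MT2-MMP) held at the cell surface, while *Mmp2* and *Mmp9* encode the secreted gelatinases and *Mmp11* encodes stromelysin-3. TIMP proteins block the active site. TIMP2 has a second role: bound to MMP14 at the cell surface it holds the MMP2 proenzyme in place, so that a neighboring free MMP14 can cut it into the active form. TIMP3 stays bound to the matrix and also blocks VEGF binding to its receptor KDR. RECK restrains several metalloproteinases at the membrane and, with ADGRA2, serves as a WNT7 receptor in brain endothelium. Basigin raises metalloproteinase production in neighboring cells and escorts lactate transporters to the membrane.

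The 5 enzymes share a zinc-binding site with 3 histidines. The coding sequence of that stretch is given for each, as a part common to the 5. Capitals mark the histidine codons, which a script found in the annotated mouse transcripts (GENCODE M21, build GRCm38), 5′ to 3′ on the coding strand.
Mmp2: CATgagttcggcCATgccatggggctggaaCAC
Mmp9: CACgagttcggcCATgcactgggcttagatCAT
Mmp11: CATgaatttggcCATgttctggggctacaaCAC
Mmp14: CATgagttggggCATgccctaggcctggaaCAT
Mmp15: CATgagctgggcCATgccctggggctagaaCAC
The stretch lies in exon 8 of 13 of *Mmp2* (chr8:92839279-92839311, plus strand) and in exon 8 of 13 of *Mmp9* (chr2:164951133-164951165, plus strand). It lies in exon 5 of 9 of *Mmp11* (chr10:75926931-75926963, minus strand), exon 5 of 10 of *Mmp14* (chr14:54437627-54437659, plus strand) and exon 5 of 10 of *Mmp15* (chr8:95368585-95368617, plus strand). Between any pair of the 5 genes, 23 to 29 of the 33 bases were identical, with the most between *Mmp2* and *Mmp15*. Every pair thus differed at 4 or more positions of this stretch. The search required the histidine codons and some other bases, so part of the identity was fixed in advance. Whether reads were told apart between these genes was not tested.

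Of the enzymes, *Mmp2* and *Mmp14* were lower and *Mmp15* was higher in the libraries labelled VEC-positive. *Mmp2* nearly disappeared, *Mmp14* fell by 0.70 on the log2 scale and remained the most abundant of the enzymes per kilobase in both groups, and *Mmp15* rose 2.16-fold. *Mmp11* was low and its difference did not pass the test, and *Mmp9* was at a few reads in every library. In bulk RNA, fewer cells of a type and less RNA per cell cannot be told apart, so each value below is an average over the culture. Fold changes are on the scale of log2 of the normalized count plus 1, with limma's moderated test and Benjamini-Hochberg adjustment over all 14032 genes tested, and a gene was called when its adjusted p was under 0.05.

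*Mmp2* (ENSMUSG00000031740, chr8:92827291-92853420 of mm10, plus strand) stood at 512.6, 512.7 and 578.1 normalized counts in VEC-null, but at just 12.83, 10.72 and 7.263 in VEC-positive, with libraries given in the order 1, 2 and 3 here and below. The groups were far apart, with every VEC-null library above every VEC-positive one. The mean went from 534.4 ± 37.8 (SD, n = 3) to 10.27 ± 2.81 (SD, n = 3). The log2 fold change was -5.60 (standard error 0.21, limma adjusted p = 1.31e-06), or 48.5-fold lower. The VEC-positive level rests on 11, 11 and 9 reads, so its exact size is known less well than that of the VEC-null level, which rests on 335, 651 and 652 reads.

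*Mmp14* (ENSMUSG00000000957, chr14:54431612-54445364, plus strand), which encodes the activator of the MMP2 proenzyme, stood at 2921, 2939.7 and 3374 in VEC-null and at 1939.7, 1945 and 1771 in VEC-positive. VEC-null 3 was the highest of its group, and the groups did not overlap. The mean fell from 3078 ± 256 to 1885 ± 98.9 (SD, n = 3 each), which is a log2 fold change of -0.70 (standard error 0.084, limma adjusted p = 0.000408), or 1.63-fold lower. The change in *Mmp14* was thus far smaller in log2 terms than that of *Mmp2*, although both passed.

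*Mmp15* (ENSMUSG00000031790, chr8:95352268-95375080, plus strand), the other membrane-type enzyme, stood at 324.4, 330.8 and 325.4 in VEC-null and at 729.0, 703.3 and 685.1 in VEC-positive. Libraries within each group were close to each other, and the groups did not overlap. The mean rose from 326.8 ± 3.43 to 705.8 ± 22.0 (SD, n = 3 each), which is a log2 fold change of 1.11 (standard error 0.075, limma adjusted p = 2.4e-05). The membrane-type enzymes *Mmp14* and *Mmp15* therefore ran in opposite directions.

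*Mmp11* (ENSMUSG00000000901, chr10:75923222-75936496, minus strand) had 30.60, 60.64 and 92.21 normalized counts in VEC-null and 27.99, 32.15 and 28.24 in VEC-positive. VEC-null 1 lay within the range of the VEC-positive libraries, and VEC-null 2 and 3 lay above it. The mean was 61.15 ± 30.8 and 29.46 ± 2.33 (SD, n = 3 each), and the log2 fold change of -0.90 (standard error 0.37, limma adjusted p = 0.0962) did not pass. The call depended on the tool and the libraries, since the same difference passed with edgeR on recovered reads (-1.10, adjusted p = 0.0442), with DESeq2 (-1.08, adjusted p = 0.0402) and without VEC-null 1 (-1.32, limma adjusted p = 0.00785), while it was -0.54 without VEC-null 3. *Mmp11* overlaps *Chchd10* on the opposite strand, which had mean normalized counts of 1.38 and 5.82.

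*Mmp9* (ENSMUSG00000017737, chr2:164940780-164955850, plus strand) had 3, 1 and 1 reads in VEC-null and 0, 3 and 3 in VEC-positive. With 3 reads taken as the floor of detection, each library was at or under it, *Mmp9* fell below the filter on low counts, and a difference was not detectable at this depth. Of the gelatinase genes, only *Mmp2* was thus measured above that floor in these libraries.

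**Figure D1:**
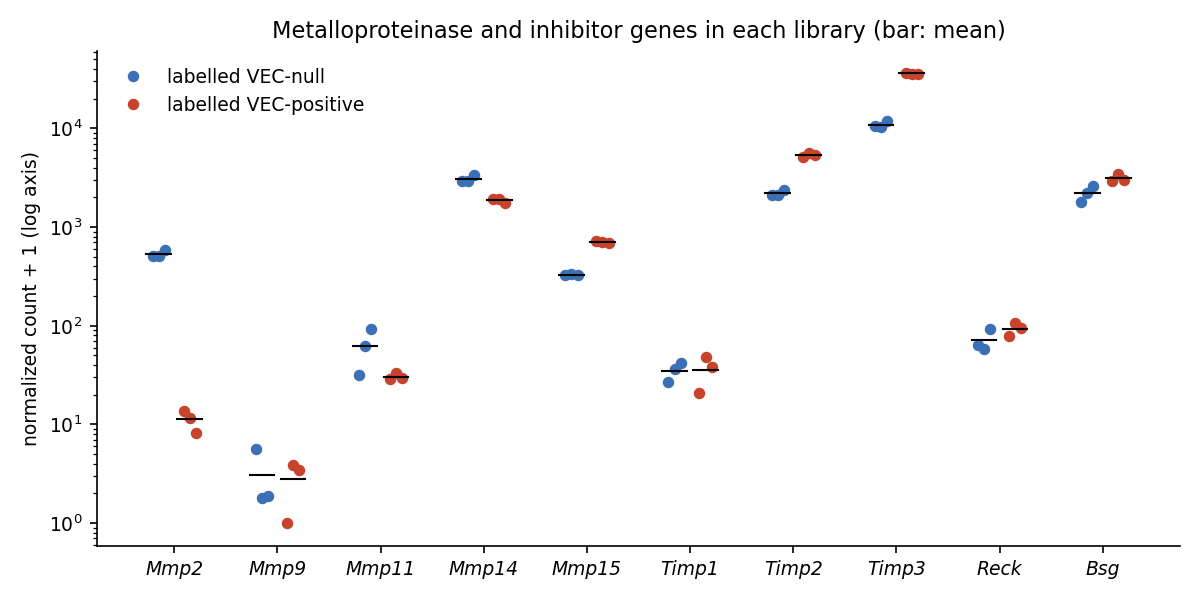
Normalized count plus 1 of each of the 10 genes on a log axis, with 1 point per library (blue for VEC-null, red for VEC-positive) and a bar for the group mean. *Mmp2* lay between 512.6 and 578.1 in VEC-null and between 7.263 and 12.83 in VEC-positive, the mean of *Timp3* rose from 10900.4 to 35949, and the groups of *Mmp9*, *Mmp11*, *Timp1* and *Reck* overlapped.

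Of the inhibitors, *Timp2* and *Timp3* rose in the VEC-positive libraries, by 2.44-fold and 3.3-fold, while differences in *Timp1* and *Reck* did not pass. *Timp3*, already the highest of the 3 Timps in VEC-null, showed the largest of these changes.

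*Timp3* (ENSMUSG00000020044, chr10:86300372-86349506, plus strand) stood at 10642, 10209 and 11850.3 in VEC-null and at 36148, 35844 and 35856 in VEC-positive. The VEC-positive libraries were nearly level with each other, and the groups were well separated. The mean rose from 10900.4 ± 851 to 35949 ± 172 (SD, n = 3 each), and the log2 fold change was 1.72 (standard error 0.095, limma adjusted p = 8.02e-06). *Timp3* lies within *Syn3*, which is on the opposite strand and had mean normalized counts of 103 and 295. No source used here gives the strand setting of the counting, and the *Syn3* level was a small part of that of *Timp3*.

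*Timp2* (ENSMUSG00000017466, chr11:118301069-118355740, minus strand) stood at 2104, 2109 and 2382 in VEC-null and at 5129.7, 5579.8 and 5361 in VEC-positive. Every VEC-positive library lay above every VEC-null library. The mean rose from 2198 ± 159 to 5357 ± 225 (SD, n = 3 each), which is a log2 fold change of 1.29 (standard error 0.079, limma adjusted p = 1.49e-05). It overlaps *Cep295nl* on the same strand, whose mean normalized counts were 12.2 and 19.1. *Timp2* thus rose while *Mmp2* and *Mmp14*, whose products meet TIMP2 at the cell surface, fell.

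*Timp1* (ENSMUSG00000001131, chrX:20870166-20874735, plus strand), the inhibitor best known for binding pro-MMP9, had 26.01, 35.44 and 40.78 normalized counts in VEC-null and 19.83, 47.73 and 37.12 in VEC-positive. The VEC-positive libraries held both the lowest and the highest value. The means were 34.08 ± 7.48 and 34.89 ± 14.1 (SD, n = 3 each), and the log2 fold change was -0.03 (standard error 0.35, limma adjusted p = 0.957). The fold change on the log scale and the difference of the means had opposite signs. It lies within *Syn1* on the opposite strand, which had mean normalized counts of 3.75 and 11.4.

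*Reck* (ENSMUSG00000028476, chr4:43875530-43944806, plus strand) had 62.73, 56.70 and 91.32 normalized counts in VEC-null and 78.15, 105.2 and 92.80 in VEC-positive. VEC-null 3 lay among the VEC-positive libraries, and VEC-null 1 and 2 lay below them. The log2 fold change was 0.41 (standard error 0.22, limma adjusted p = 0.187), and without VEC-null 3 it was 0.61 and passed (limma adjusted p = 0.0231). Of the 17 alternative analyses, *Reck* passed in this 1 only. The fit without VEC-null 3 called 51.0% of all tested genes, against 37.3% with all libraries.

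*Bsg* (ENSMUSG00000023175, chr10:79704491-79711969, plus strand) was moderately higher in the libraries labelled VEC-positive. It stood at 1793, 2188 and 2580 normalized counts in VEC-null and at 2942, 3408 and 2989.8 in VEC-positive, so that the groups did not overlap although the VEC-null libraries were spread widely. The mean rose from 2187 ± 393 to 3113 ± 256 (SD, n = 3 each), which is a log2 fold change of 0.52 (standard error 0.13, limma adjusted p = 0.0164). Of the 6 calls, only that of *Bsg* was lost in any of the 17 alternatives: it was lost when libraries were scaled to equal totals (0.21, adjusted p = 0.191), to equal totals without the mitochondrial genome (0.38, adjusted p = 0.0737), in limma without a mean-variance trend (0.52, adjusted p = 0.0507) and without VEC-positive 2 (0.45, adjusted p = 0.0694).

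**Figure D2:**
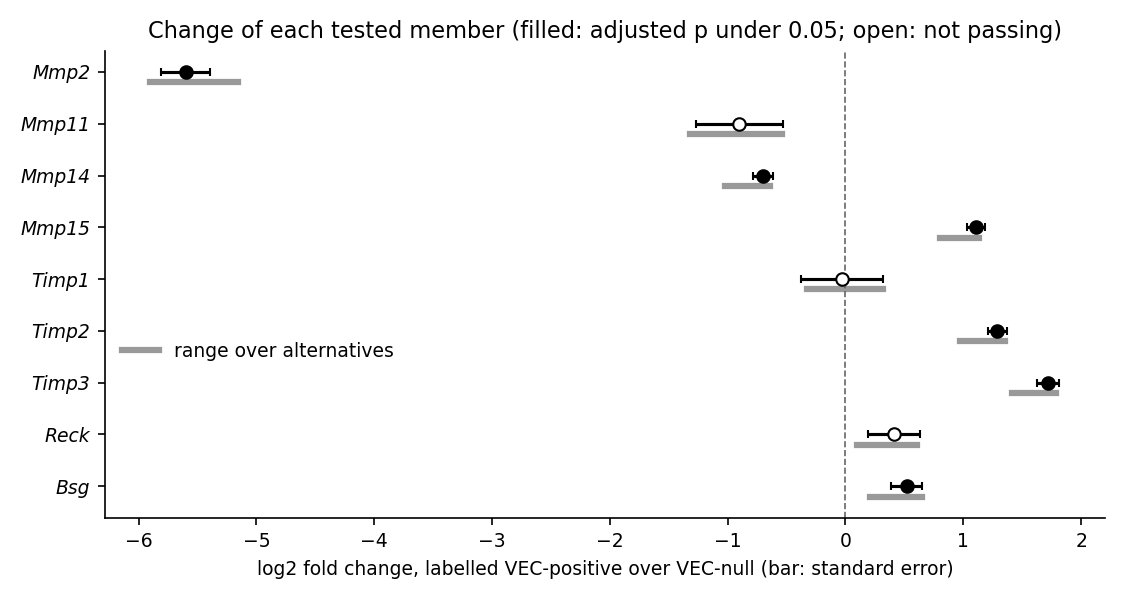
Log2 fold change (VEC-positive against VEC-null) for the 9 tested genes, with whiskers for limma's standard error, filled points for genes called and a grey bar below each point for the range over the alternative analyses. *Mmp2* lay at -5.60 and *Timp3* at 1.72, and the range of *Timp1* spanned 0.

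In all, 9 of the 10 genes passed the filter on low counts, and 6 of these 9 were called: 4 higher (*Mmp15*, *Timp2*, *Timp3* and *Bsg*) and 2 lower (*Mmp2* and *Mmp14*). Of all 14032 genes tested, 37.3% were called, 20.9% as higher and 16.4% as lower, so that a call by itself was common in this comparison. The groups did not overlap for the same 6 genes, against 50% of all tested genes. The median log2 fold change was 0.41 over the 9 genes and -0.01 over all genes. Without VEC-null 3, 51.0% of all genes were called (27.1% higher and 23.9% lower), and *Reck* joined the genes called higher, which made 5 higher and 2 lower of the 9. Scaling to equal totals moved the median of all genes to -0.32, with 46.5% of genes called, 11.2% as higher and 35.3% as lower. There *Bsg* was no longer called and *Mmp11* was called lower (-1.20, limma adjusted p = 0.0287), which made 3 higher and 3 lower of the 9. Relative to that median, the log2 fold change of *Bsg* was 0.53 under both scalings. *Mmp2*, *Mmp14*, *Mmp15*, *Timp2* and *Timp3* kept their direction and passed in each of the 17 alternatives run, with log2 fold changes of -5.90 to -5.16, -1.02 to -0.64, 0.80 to 1.13, 0.97 to 1.35 and 1.41 to 1.79.

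Promoters of the genes that changed are shown because the study asked how VEC acts on transcription, with FoxO1 and β-catenin among the factors it examined. RefSeq promoter windows (GRCm38.p6, 250 bases before to 50 after the start) were matched for 7 of the 10 genes, and *Mmp2*, *Mmp9* and *Bsg* had no entry. The bases ahead of the annotated transcript are printed for *Timp3* (chr10:86300162-86300371) and *Mmp15* (chr8:95352046-95352267), which rose, and for *Mmp14* (chr14:54431348-54431597), which fell, all on the plus strand. Capitals mark the GC box, the letters GGGCGG on either strand, a motif of the Sp1 family.
Timp3: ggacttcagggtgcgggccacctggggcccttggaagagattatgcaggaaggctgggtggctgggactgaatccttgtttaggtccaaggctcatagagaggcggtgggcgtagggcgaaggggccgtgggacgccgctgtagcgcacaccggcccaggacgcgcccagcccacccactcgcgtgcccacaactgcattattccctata
Mmp15: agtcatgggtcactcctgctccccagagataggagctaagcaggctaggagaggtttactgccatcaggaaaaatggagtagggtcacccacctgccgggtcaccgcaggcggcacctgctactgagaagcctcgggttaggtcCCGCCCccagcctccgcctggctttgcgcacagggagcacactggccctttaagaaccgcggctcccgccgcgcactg
Mmp14: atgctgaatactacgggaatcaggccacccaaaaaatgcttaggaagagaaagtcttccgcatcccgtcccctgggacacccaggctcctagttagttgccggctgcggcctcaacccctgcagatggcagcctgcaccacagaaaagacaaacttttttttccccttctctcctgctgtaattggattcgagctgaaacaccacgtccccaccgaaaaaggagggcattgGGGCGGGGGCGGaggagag
The GC box was found in 7 of 7 member windows and in 35.7% of 32851 promoter windows of 300 bases, and that of *Timp3* lay beyond the printed bases. The letters GTAAACA (a FoxO motif), CTTTGAT (a Tcf motif) and TGANTCA (the AP-1 motif) were searched on both strands. They were in none of the 7 member windows and in 3.65%, 3.73% and 7.81% of all windows. The study searched a far longer span of other genes, *VE-PTP* and *vWf*, for paired sites and measured binding there. The counts here are therefore not set against its result. The windows of *Timp2*, *Timp3*, *Reck* and *Mmp15* held 22 to 25 CpG dinucleotides, that of *Mmp11* 19, and those of *Mmp14* and *Timp1* 10 and 8, with a median of 7 over all windows. A match only describes letters, the lack of one says only that they are not in this window, and genes that rose and genes that fell shared the GC box.

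Levels per kilobase of exon, which allow genes to be set beside each other, put *Timp3* first, *Bsg* second and *Mmp9* last in both groups. In VEC-null, *Timp3* (1338 ± 104 normalized counts per kb, SD, n = 3) and *Bsg* (1206 ± 217) led and overlapped, followed by *Timp2* (564 ± 40.9) and *Mmp14* (516 ± 43.0), which also overlapped. *Mmp2* came next at 159 ± 11.2 per kb, clear of *Mmp14* above it and of *Mmp15* below it at 60.6 ± 0.635. *Timp1* (38.4 ± 8.42), *Mmp11* (22.0 ± 11.1) and *Reck* (14.7 ± 3.87) followed per kb, *Mmp11* overlapping both of the others, and *Mmp9* was last at 0.59 ± 0.612. In VEC-positive the order per kb was *Timp3* (4414 ± 21.2), *Bsg* (1716 ± 141), *Timp2* (1375 ± 57.8), *Mmp14* (316 ± 16.6), *Mmp15* (131 ± 4.08), *Timp1* (39.3 ± 15.9), *Reck* (19.3 ± 2.83), *Mmp11* (10.6 ± 0.838), *Mmp2* (3.05 ± 0.834) and *Mmp9* (0.503 ± 0.442), and no neighbors in this order overlapped. *Mmp2* thus moved from 5th to 9th place. With the longest transcript in place of the union of exons as length, *Mmp14* (951 per kb) stood above *Timp2* (593 per kb) in VEC-null.

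**Figure D3:**
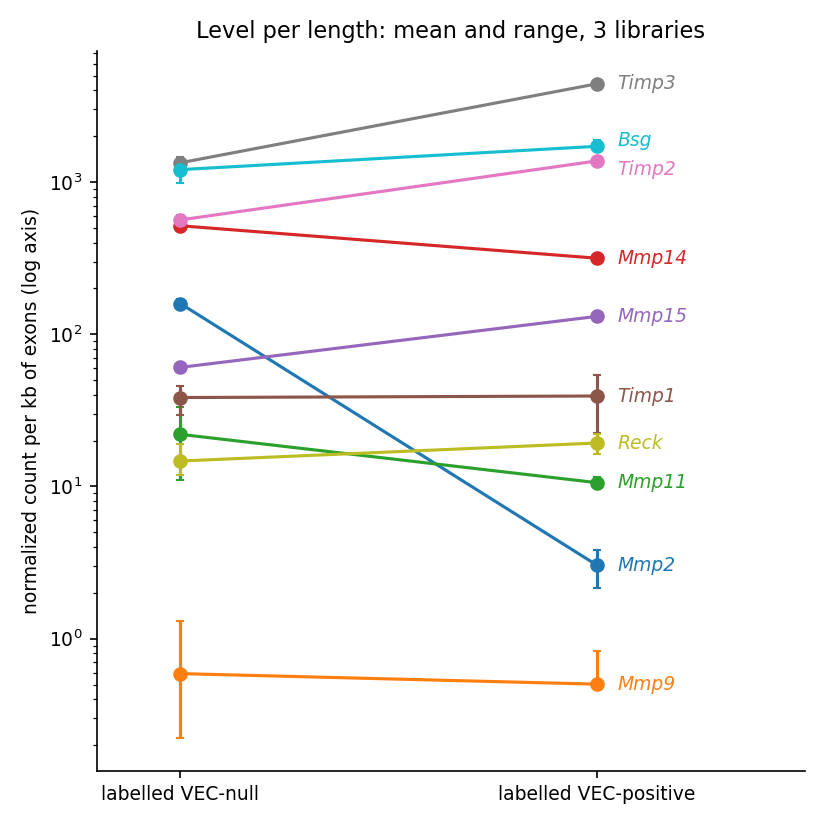
Normalized counts per kb of exon for the 10 genes in each group on a log axis, with points for means, whiskers for the range over 3 libraries and lines joining the groups. *Timp3* was highest in both groups, at 1338 and 4414, and *Mmp2* dropped from 159 to 3.05. The lowest VEC-positive value of *Mmp9*, 0, lies below the axis and has no whisker.

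The balance of enzyme to inhibitor RNA was lower in the libraries labelled VEC-positive. Ratios taken within a library do not depend on how libraries were scaled. The ratio of *Mmp14* to *Timp2*, each per kb, was 0.908, 0.911 and 0.926 in VEC-null and 0.247, 0.228 and 0.216 in VEC-positive. The mean thus went from 0.915 ± 0.0096 to 0.230 ± 0.016 (SD, n = 3 each), 3.97-fold lower. The ratio of *Mmp2* to *Timp2* per kb was 0.282, 0.281 and 0.280 in VEC-null and 0.00289, 0.00222 and 0.00157 in VEC-positive, 126-fold lower.

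The 5 Mmps summed per kb stood to the 3 Timps summed per kb as 0.381, 0.397 and 0.393 in VEC-null and as 0.0821, 0.0802 and 0.0751 in VEC-positive, 4.93-fold lower. Libraries of a group were close to each other in this ratio, VEC-null 3 included. None of these ratios overlapped between groups, and the share of other gene pairs that do the same was not computed. An exact permutation test of 3 libraries against 3 cannot give a two-sided p below 0.10. Within the Mmp sum, *Mmp14* kept its share at 67.7% to 69.1% in every library. The share of *Mmp2* went from 20.6% to 21.3% in VEC-null to 0.493% to 0.802% in VEC-positive, and that of *Mmp15* from 7.25% to 8.41% to 27.6% to 29.0%. The enzyme RNA other than *Mmp14* thus passed from mostly *Mmp2* to mostly *Mmp15*. Within the Timp sum, *Timp3* took 68.3% to 69.7% in VEC-null and 74.8% to 76.8% in VEC-positive. With the longest transcript as length, the mean ratio of *Mmp14* to *Timp2* was 1.60 in VEC-null and 0.404 in VEC-positive, so whether *Mmp14* stood above or below *Timp2* in VEC-null depended on the length used, while its fold between groups did not.

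**Figure D4:**
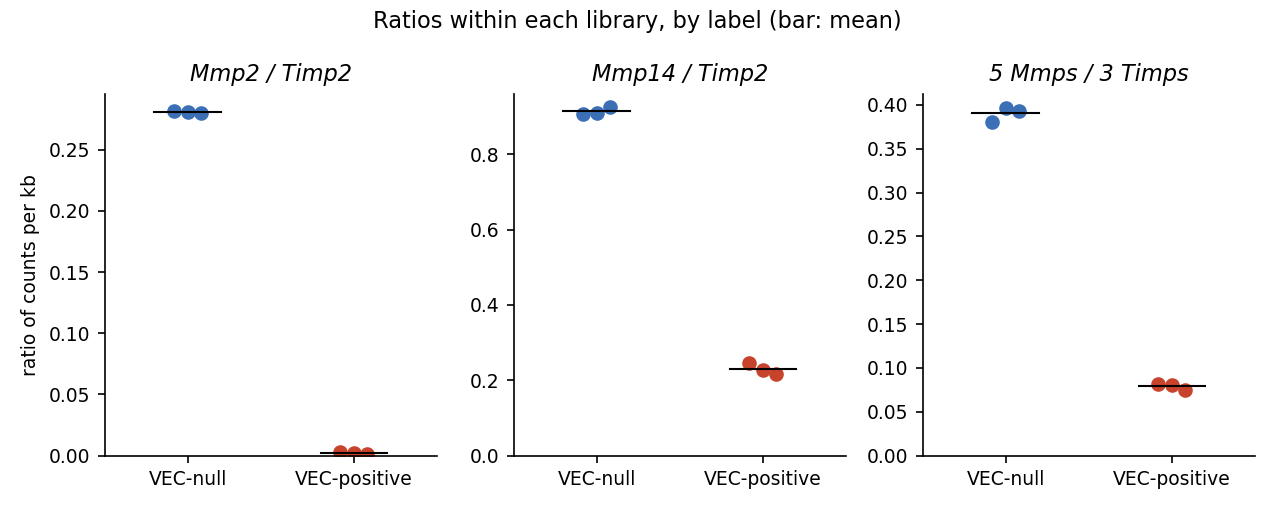
Ratios of normalized counts per kb within each library, for *Mmp2* to *Timp2*, *Mmp14* to *Timp2* and the summed Mmps to the summed Timps, with 1 point per library, a bar for the group mean and axes that start at 0. Each ratio was lower in all 3 VEC-positive libraries, by 126-fold, 3.97-fold and 4.93-fold between group means.

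*Mmp2* had the largest change among the 10 genes, and the 5 tested genes whose log2 values followed it most closely over the 6 libraries were *Pmepa1* (Pearson r = 0.9998), *Chd3* (0.9997), *Snn* (0.9994), *Tgm2* (0.9993) and *Frmd4a* (0.9990). Of these, *Tgm2* (transglutaminase 2, a crosslinker of matrix proteins) had mean normalized counts of 1482 and 20.3, and *Pmepa1* (an inhibitor of TGF-β signaling) 606 and 22.0. *Chd3*, *Snn* and *Frmd4a* had log2 fold changes of -1.97, -0.64 and -1.27. These values describe 6 libraries that fall into 2 separated groups, and 183 genes had an r over 0.99.

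Counts in the lists of related genes that follow stand against the shares of all tested genes, 20.9% called higher and 16.4% lower. Those shares hold for all libraries as deposited. Scaled to equal totals the shares were 11.2% and 35.3%, and without VEC-null 3 they were 27.1% and 23.9%. Without VEC-positive 1, 2111 of the 14032 genes were higher and 1585 lower. The stricter filter, which kept fewer genes, had 2656 higher and 1909 lower. Other metalloproteinases were scarce. Of 19 listed genes (the remaining Mmps and *Timp4*), 12 had a row and 6 passed the filter, of which 2 were called higher and none lower, with a median log2 fold change of 1.06. *Mmp28* (epilysin) rose from 84.97 ± 5.10 to 137.3 ± 8.97 normalized counts (SD, n = 3 each, log2 fold change 0.69, limma adjusted p = 0.00458). The other call, named after its values were seen, was *Mmp3* (stromelysin-1), with 14.06 ± 5.75 and 47.25 ± 3.88 (limma adjusted p = 0.00346). *Mmp17* (0.47, adjusted p = 0.238) and *Mmp16* (-1.06, adjusted p = 0.156), both membrane-type enzymes, did not pass in limma. Without VEC-null 3 the list had 4 genes higher and 1 lower, and with the stricter filter, a normalized count of 50, it had 1 higher.

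Plasmin, made from plasminogen by the activators encoded by *Plat* and *Plau*, is another route by which metalloproteinase proenzymes are cut. Of 11 listed genes of this system 9 had a row and 8 were tested, with 3 higher, 1 lower and a median log2 fold change of 0.17. *Plat*, the tissue-type activator, fell from 298.2 ± 24.8 to 162.9 ± 21.4 (-0.87, limma adjusted p = 0.00127). *Anxa2* (0.87, adjusted p = 0.000386) and *S100a10* (1.01, adjusted p = 0.00764), which together form a cell-surface plasminogen receptor, rose in limma. *Plau*, the urokinase gene, had 2066 ± 69.5 and 2246 ± 27.8 (0.12, limma adjusted p = 0.183), and its receptor gene *Plaur* did not pass either (0.21, limma adjusted p = 0.285).

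Some of the proprotein convertases, furin among them, cut the membrane-type and *Mmp11* proenzymes inside the cell. Of 8 listed, 7 had a row and 5 were tested, with 1 lower, none higher and a median log2 fold change of 0.05. *Furin*, the main enzyme of this kind, had 740.5 ± 91.8 and 761.2 ± 17.3 (0.05, limma adjusted p = 0.742), and *Mbtps1* had 0.14 (adjusted p = 0.232). The call, named after its values were seen, was *Pcsk6*, with 52.06 ± 6.94 and 19.28 ± 9.01 (-1.47, limma adjusted p = 0.0107). Without VEC-null 3 the list had 1 gene higher and 2 lower, and with the stricter filter none lower.

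Of 12 listed surface partners and uptake receptors of these proteins, 11 had a row and 10 were tested, with 7 higher, 1 lower and a median log2 fold change of 0.62, where 20.9% of all genes were higher and 16.4% lower. Scaled to equal totals, the list had 6 higher and 2 lower. *Lrp1*, the endocytic receptor that clears MMPs and TIMPs, rose from 28.65 ± 12 to 165.3 ± 4.33 (2.57, limma adjusted p = 0.000323). *Thbs1* (thrombospondin-1, 1.11, adjusted p = 0.000298), *Cd44* (a surface anchor of MMP14, 0.81, adjusted p = 0.00834) and *Cd63* (a surface receptor of TIMP1, 0.72, adjusted p = 0.00164) rose in limma. *Itgb3* (-0.23, adjusted p = 0.145) and *Adam17* (0.26, adjusted p = 0.0914) did not pass. The lower call, named after its values were seen, was *Adgra2*, the partner of RECK (675.6 ± 84.8 and 466.2 ± 33.4, -0.53, limma adjusted p = 0.00628).

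Basigin's partners and relatives numbered 8 as listed, of which 6 had a row and were tested, with 4 higher, none lower and a median log2 fold change of 0.71. *Slc16a3*, the lactate exporter MCT4, rose from 23.98 ± 9.95 to 95.01 ± 6.48 (2.01, limma adjusted p = 0.000926), and *Nptn* (neuroplastin, a relative of basigin) rose by 1.0 on the log2 scale (adjusted p = 0.000159). *Ppia*, whose product cyclophilin A binds basigin, rose by 0.42 (limma adjusted p = 0.0172). *Slc16a1*, the transporter MCT1, had 202.8 ± 43.3 and 155.3 ± 5.58 (-0.36, limma adjusted p = 0.11), and *Ppib* had 0.19 (adjusted p = 0.341). Scaled to equal totals, the list had 3 higher and 1 lower.

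Matrix substrates moved both ways. Of 20 listed genes 18 were tested, with 8 higher, 4 lower and a median log2 fold change of 0.44. *Col3a1* (a fibrillar collagen chain) went from 1 read in the 3 VEC-null libraries together to normalized counts of 787.3, 727.7 and 701.3 in VEC-positive. *Bgn* (biglycan) rose from 16.59 ± 4.93 to 2226 ± 70.4 (7.03, limma adjusted p = 5.34e-07), and *Nid2* (nidogen-2, of the basement membrane) rose by 2.26 (adjusted p = 7.51e-07). *Lamb1* (laminin β1) fell from 1917 ± 178 to 727.6 ± 32.6 (-1.39, limma adjusted p = 1.59e-05). *Lamc1* (-0.05, adjusted p = 0.67) and *Lama4* (-0.05, adjusted p = 0.624), further laminin chains, did not pass. Of the mural and fibroblast markers 3 were tested and only *Pdgfrb* was called, while *Col1a1*, at 2.957 and 18.31, fell below the filter. *Pdgfrb* was higher in the same libraries as *Col3a1* and *Bgn*, and its part in them was not tested.

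Of 14 transcription factors known to act on metalloproteinase promoters 11 were tested, with 9 higher, 1 lower and a median log2 fold change of 0.68. *Nfkb1* (0.93, limma adjusted p = 3.54e-05), *Jund* (0.91, adjusted p = 9.78e-05), *Rela* (0.69, adjusted p = 0.00126) and *Junb* (0.68, adjusted p = 0.0211), of the NF-κB and AP-1 families, rose. *Fosl2* (-0.15, limma adjusted p = 0.277) did not pass. The factors below the filter had lower means in VEC-positive: *Fos* (8.246 and 6.061), *Fosb* (7.524 and 3.541) and *Etv4* (7.953 and 1.909). The lower call, named after its values were seen, was *Ets1*, an endothelial ETS factor, with 3337 ± 56.5 and 2717 ± 71.2 (-0.30, limma adjusted p = 0.00837). This call was lost without VEC-positive 1, where the list had 6 genes higher and 0 lower. The list had 6 higher and 1 lower without VEC-positive 2, and the same without VEC-positive 3. All tested genes had 2111 higher and 1636 lower in the first of these fits, and 2245 and 1679 in the second. Scaled to equal totals the list had 6 higher and 2 lower.

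**Figure D5:**
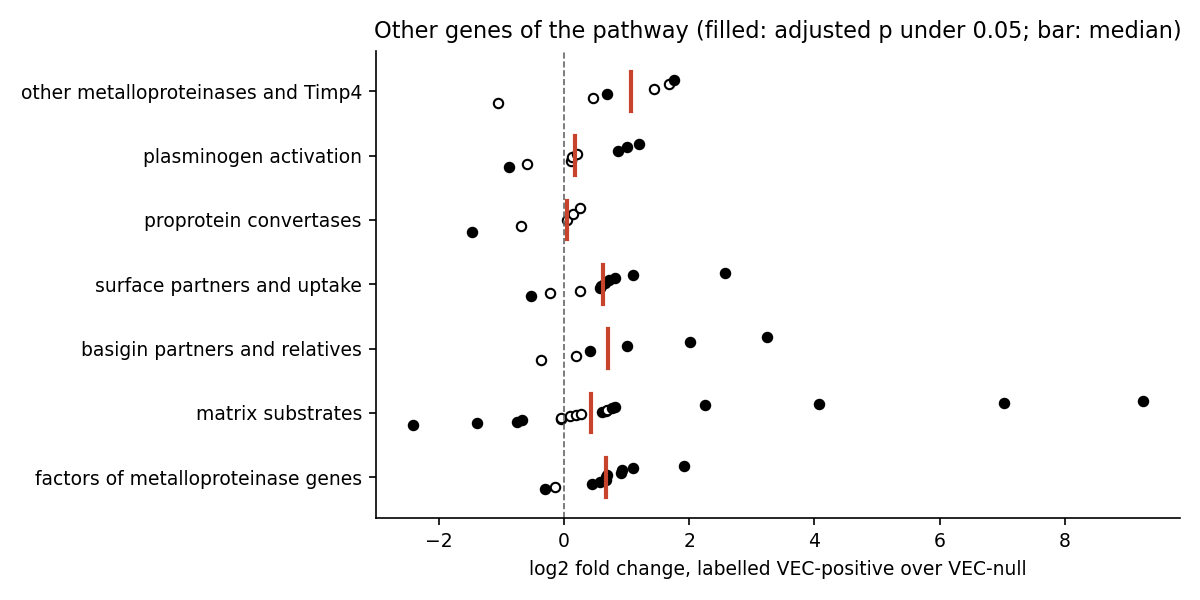
Log2 fold change of each tested gene in the 7 lists around the metalloproteinases, 1 point per gene, with filled points for genes called and a red bar for the list median. Medians ran from 0.05 for the proprotein convertases to 1.06 for the other metalloproteinases, against -0.01 over all genes. The rightmost point, *Col3a1*, rests on 1 VEC-null read, so its place depends on the pseudocount.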

How the data were processed

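Libraries of total RNA (3 VEC-null and 3 VEC-positive, as labelled) had been made with a stranded kit from cultured mouse endothelial cells. Per the submitters' processing notes, reads were trimmed with Trim Galore, aligned with TopHat2 2.1.1 to mm10 and processed with DESeq2 1.14. The counting program, annotation and strand setting were not given in the sources used here. Signal values as deposited, keyed by Ensembl identifier for 24080 genes, are counts after division by a size factor that the authors set for each library. Of 144480 values, 100.0% were whole multiples of 1 read within 0.01 of a read, which gave the recovered reads (median 11128657 per library). The floor of 3 reads covers counting error only, since PCR duplicates count as reads. GENCODE M21 gave a symbol and position to 23908 genes.

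Genes were tested if 3 or more libraries reached a normalized count of 10, which 14032 did and 10048 did not. Log2 values (pseudocount 1) were compared two-sided in limma 3.58.1 under R 4.3.3, modeling the variance as a trend on the mean. P-values were adjusted across the 14032 genes by the Benjamini-Hochberg method, and 0.05 was the threshold. Because the files hold normalized values, edgeR 4.0.16 and DESeq2 1.42.0 were run on recovered reads as alternatives. The other alternatives were further pseudocounts, filters and scalings, limma without a trend, the replicate number as a block and leaving out each library, 17 in all. The longest transcript replaced the union of exons as length for levels per kb. The limma, edgeR and DESeq2 steps were tested on simulated data. Replicates are called biological by the study, and their numbers were not found to pair the libraries.

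The 10 genes and all lists were chosen with earlier results of these data known. Of 127 list and marker genes 108 had a row. Of each list, the text names up to 4 called genes, ranked by size of change among those averaging 50 or more, and up to 2 uncalled genes of highest mean. Of the genes drawn by this rule, 1 is not reported here. Others are said to be named after their values were seen. Sequences came from GENCODE transcripts and RefSeq promoters. Figures were drawn with matplotlib 3.10.9.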

Additional observations from a re-analysis of the deposited data

How the results depend on the processing

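Of 151 alternative values of the member fold changes, 137 kept direction and side of the threshold, 4 lost a call (all *Bsg*), 5 gained one (*Mmp11* and *Reck*) and 5 changed sign (all *Timp1*, which was never called). *Timp1* was 0.01 with edgeR and 0.01 with DESeq2, and -0.29 to 0.32 when each library was left out. Scaling to equal totals gave 1566 genes higher and 4960 lower, against 2927 and 2304. All 34 member counts stayed within 1.5 times of the values given, and 12 of 238 list counts did not (other metalloproteinases, convertases, surface partners, basigin partners and transcription factors, under equal totals, the stricter filter or without VEC-null 3 or VEC-positive 1). With the longest transcript as length, *Mmp14* to *Timp2* was 1.60 and 0.404, *Mmp2* to *Timp2* 0.293 in VEC-null and summed Mmps to Timps 0.413 in VEC-null, and 11 of 20 levels per kb moved by more than 1 SD. Same-numbered libraries did not deviate together (correlations of 0.076, -0.333 and -0.295), so the numbers are not taken as pairs. A fit with the replicate number as a block gave 2400 genes higher and 1744 lower, with 4 and 2 of the members, as without it. Depth limits *Mmp9*, at 3 reads or fewer per library, and the VEC-positive level of *Mmp2*, at 9 to 11 reads. The causes of these shifts were not tested.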
